A study of Mus musculus with 12 samples.

Results

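The regions described here were open in macrophage lines induced to make Nur77, with and without an endotoxin stimulus, and were mostly missing from the peak lists of matched lines making green fluorescent protein (GFP). They were chosen from the peak calls themselves. Peaks of 12 ATAC-seq lists on chromosomes 1 to 19, X and Y were merged into 100374 regions, and a region was kept when it held a peak in at least 4 of the 6 Nur77 lists and in at most 1 of the 6 GFP lists. This gave 522 regions, 0.52% of all. The opposite pattern, at least 4 GFP lists and at most 1 Nur77 list, was met by 4415 regions (4.4%).

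All libraries came from stable lines of RAW264.7, a mouse macrophage cell line, that carried a doxycycline-inducible gene for Nur77 or for GFP. All were given 1 µg/ml doxycycline for 18 h, so the GFP cells shared the drug and the induction. Lipopolysaccharide (LPS), the endotoxin of Gram-negative bacteria, was then given at 500 ng/ml for 1 h or left out. The 4 groups were Nur77 with LPS, Nur77 untreated, GFP with LPS and GFP untreated, with 3 libraries each. The labels name 1 stable line per transgene, so differences between Nur77 and GFP and differences between 2 separately made lines cannot be told apart. Nothing in the labels says that replicates were separate cultures, so a p-value across libraries measures only how these samples vary, which may be technical variation. In a pool of cells, fewer cells with an open region and less opening per cell cannot be told apart either.

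ATAC-seq uses a transposase that cuts and tags DNA where chromatin is accessible, so a peak marks an open stretch such as a promoter or an enhancer. Nur77, encoded by Nr4a1, is an orphan nuclear receptor and an immediate early gene product that macrophages make soon after inflammatory stimuli. It binds DNA as a monomer at the NBRE, an extended nuclear receptor half-site, or as a dimer, and it is known in macrophages for restraining NF-kB driven inflammatory genes.

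The sequences below are RefSeq promoter windows (assembly GRCm38.p6, the coordinates of mm10), from 250 bases before to 50 after a transcript start, that overlap regions gained with Nur77. They were picked to show the range of starts found there, from very CpG-rich to CpG-poor and from no motif match to several. In total 36 of the 522 regions (6.90%) overlapped 40 such windows of 37 genes. Capitals mark matches to the motifs searched on both strands, which were AAAGGTCA (the NBRE), TGANTCA (AP-1), TGACGTCA (CRE), GGGA and TTTCC with any single base between them (NF-kB), GAGGAAGT (PU.1 and other ETS factors), TTGCGCAA and TTGTGCAA (C/EBP), GGGCGG (GC box), AAACCACA (RUNX) and CACGTG (E-box). Gm10190 is a gene that starts inside the Arhgef33 region, and the Ece1 and Lin28b windows belong to starts inside those genes.
Gm10190 (chr17:80373493-80373792, minus strand): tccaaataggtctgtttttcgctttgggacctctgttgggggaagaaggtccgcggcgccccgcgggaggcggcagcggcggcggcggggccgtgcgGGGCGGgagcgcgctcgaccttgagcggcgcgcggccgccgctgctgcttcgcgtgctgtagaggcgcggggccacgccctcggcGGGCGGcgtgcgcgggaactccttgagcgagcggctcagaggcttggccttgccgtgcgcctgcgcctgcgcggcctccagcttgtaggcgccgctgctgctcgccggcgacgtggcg
Ece1 (chr4:137913308-137913607, plus strand): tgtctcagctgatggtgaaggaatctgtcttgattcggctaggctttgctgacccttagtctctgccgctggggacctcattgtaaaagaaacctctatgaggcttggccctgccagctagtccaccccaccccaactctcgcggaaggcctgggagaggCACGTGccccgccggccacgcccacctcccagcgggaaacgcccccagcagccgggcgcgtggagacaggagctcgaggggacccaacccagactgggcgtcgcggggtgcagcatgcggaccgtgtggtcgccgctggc
Ina (chr19:47014431-47014730, plus strand): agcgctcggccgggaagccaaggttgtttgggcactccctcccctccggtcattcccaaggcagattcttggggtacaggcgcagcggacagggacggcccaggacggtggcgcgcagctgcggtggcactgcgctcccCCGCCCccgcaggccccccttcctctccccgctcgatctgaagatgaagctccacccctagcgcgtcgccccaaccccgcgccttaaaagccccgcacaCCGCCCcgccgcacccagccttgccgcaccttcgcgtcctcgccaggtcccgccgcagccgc
Liph (chr16:21995493-21995792, minus strand): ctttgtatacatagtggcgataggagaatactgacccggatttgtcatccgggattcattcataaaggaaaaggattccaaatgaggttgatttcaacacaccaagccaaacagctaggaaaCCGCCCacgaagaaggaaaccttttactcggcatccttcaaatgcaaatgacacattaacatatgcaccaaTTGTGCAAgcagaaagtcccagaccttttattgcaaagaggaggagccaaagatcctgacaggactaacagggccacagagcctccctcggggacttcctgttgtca
Cd48 (chr1:171681742-171682041, plus strand): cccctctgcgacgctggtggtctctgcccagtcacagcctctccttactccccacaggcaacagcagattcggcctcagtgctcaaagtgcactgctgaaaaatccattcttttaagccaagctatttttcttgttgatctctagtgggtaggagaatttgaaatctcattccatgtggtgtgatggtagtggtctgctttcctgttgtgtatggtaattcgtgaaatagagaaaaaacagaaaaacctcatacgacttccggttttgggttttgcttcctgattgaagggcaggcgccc
Lin28b (chr10:45470152-45470451, minus strand): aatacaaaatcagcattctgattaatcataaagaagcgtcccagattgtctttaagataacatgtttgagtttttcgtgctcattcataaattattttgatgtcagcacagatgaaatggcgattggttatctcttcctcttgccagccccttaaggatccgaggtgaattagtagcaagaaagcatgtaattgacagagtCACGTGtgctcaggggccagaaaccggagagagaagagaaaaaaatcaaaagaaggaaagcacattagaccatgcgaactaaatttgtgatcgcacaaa
Lpar2 (chr8:69822315-69822614, plus strand): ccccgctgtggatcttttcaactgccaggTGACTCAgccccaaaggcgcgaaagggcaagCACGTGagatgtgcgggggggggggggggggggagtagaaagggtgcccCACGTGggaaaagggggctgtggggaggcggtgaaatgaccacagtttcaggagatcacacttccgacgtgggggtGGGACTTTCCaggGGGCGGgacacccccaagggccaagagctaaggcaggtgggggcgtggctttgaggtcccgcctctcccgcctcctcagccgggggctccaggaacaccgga

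The Gm10190 window held 48 CpG dinucleotides and a GC content of 75%, and its capitals are GC boxes. The Ina window, which opens the gene of the neuronal filament protein alpha-internexin, held 32 CpG and also matched the GC box. The Ece1 and Lin28b windows each held a single E-box, with 21 and 8 CpG. The Cd48 window held 7 CpG and no match to any of the motifs. Lpar2, a receptor gene for lysophosphatidic acid, had the most kinds of match, with AP-1 at base 30, E-boxes at bases 61 and 110, NF-kB at base 186 and a GC box at base 199, counted from the first base printed. Liph encodes a lipase that makes lysophosphatidic acid, and its window held a GC box and the TTGTGCAA form of the C/EBP motif.

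Over the 40 windows, the median GC content was 54.7% and the median number of CpG was 9. Windows in regions called in all 12 lists stood at 61.3% and 22, and all 32851 mouse windows at 52.7% and 7. The NBRE was found in 0 of the 40 windows, against 1.51% of all windows. AP-1 was found in 3 windows (7.5%, against 7.81% of all). The E-box was found in 7 windows (17.5%, against 7.15%) and the GC box in 18 (45%, against 35.7%). Windows in regions called in all 12 lists held the E-box in 10.7% and the GC box in 64.9%. Windows of the opposite set held them in 8.23% and 29.7%. The GC box share was thus below that of regions open in every list. NF-kB was found in 2 windows (5%, against 0.411%), those of Lpar2 and of Pglyrp1, a gene of an antibacterial recognition protein. PU.1 and other ETS factors had 3 (7.5%, against 3.20%) and TTGTGCAA had 1 (2.5%, against 1.01%). CRE, TTGCGCAA and RUNX had none, against 1.79%, 0.183% and 1.78% of all windows. These are matches of letters in promoter windows only, and the other regions were not searched. Whole windows were searched, though some overlapped a region by little, that of Rapgef2 by 10 bases. A match can therefore lie outside the region, as the GC box of Gm52520 at base 42 does. No region overlapped any of 1005 miRNA hairpins.

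The number of the 522 regions called varied widely between lists. The Nur77 lists with LPS called 487, 299 and 406 of them in replicates 1, 2 and 3, and the untreated Nur77 lists called 468, 234 and 484. The GFP lists with LPS called 8, 13 and 176, and the untreated GFP lists called 27, 43 and 49. Every Nur77 list called more of the regions than every GFP list, a direction that the rule fixes. The lists held 44790 to 59858 peaks for Nur77 with LPS, 36184 to 55656 for Nur77 untreated, 48275 to 81467 for GFP with LPS and 54515 to 65061 for GFP untreated. The GFP lists were on the whole the longer ones.

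**Figure D1:**
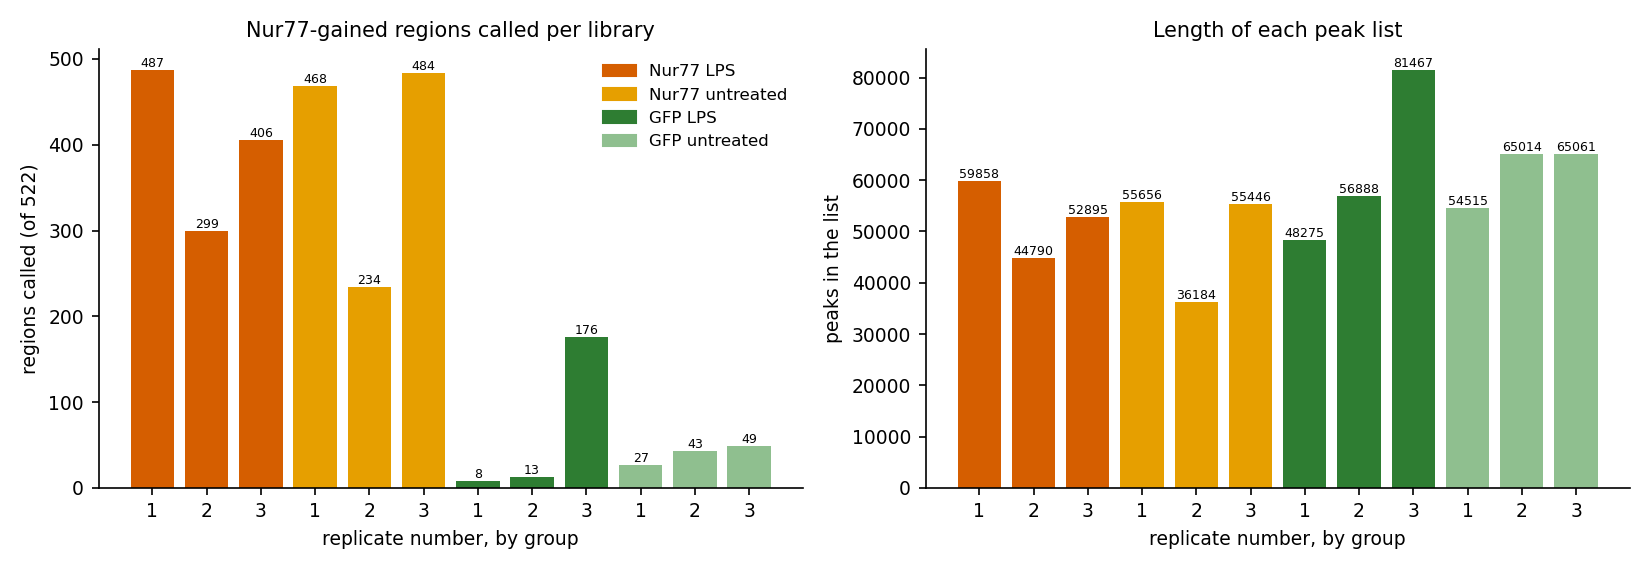
Number of the 522 regions called in each library, and number of peaks in each library's list, by group and replicate. The Nur77 lists called 234 to 487 of the regions. The GFP lists called 8 to 49, except LPS replicate 3, the longest list at 81467 peaks, which called 176.

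Of the 522 regions, 206 had no peak in any GFP list and 316 had a peak in 1. That single GFP call came from LPS replicate 3 in 176 cases (55.7%), from the other GFP LPS libraries in 8 and 13, and from the untreated GFP libraries in 27, 43 and 49. On the Nur77 side, 307 regions were called in 4 lists, 140 in 5 and 75 in 6. Of the 140 called in 5, the missing list was untreated replicate 2, the shortest, in 86. The strictest pattern, 6 of 6 Nur77 lists and 0 of 6 GFP lists, was met by 44 regions (0.0438%), against 432 (0.43%) in the opposite direction. These counts moved with list length and single libraries. With every list cut to the length of the shortest, 1136 regions met the rule, of which 93 were among the 522, and 112 met the strictest pattern. With the same limits but without GFP LPS replicate 3 the rule gave 1009 regions, and without Nur77 LPS replicate 1 it gave 248. Kept limits are looser with 1 GFP list fewer and tighter with 1 Nur77 list fewer, so these directions were largely fixed.

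Most of the 522 ranked low in their lists. Within a list, each peak was ranked by the authors' -log10 q and given a percentile, with 100 as the strongest. The mean percentile over the Nur77 lists that called a region had a median of 23.4 over the 522, with a middle range of 15.6 to 33.4, and 33 regions (6.32%) exceeded 50. All 41946 regions called in at least 4 Nur77 lists had a median of 55.6, many of them called in the GFP lists too. With percentiles averaged over every list that called a region, the medians were 23.1 for the 522, 26.7 for the opposite set and 23.0 for the other regions called in 4 to 7 lists, so the low rank was shared with regions called in as few lists. The 44 fully separated regions had a median of 36.2 and ran from 14.4 to 78.1. The authors' fold of the peak summit over background had a median of 7.28 for the 522 and 10.1 for the 44. From the spacing of the fold values, the median summit height was 12.5 reads for the 522 and 17.4 for the 44. A GFP list reached down to a fold of 3.674 to 4.25, depending on the library. The mean Nur77 fold was taken over the lists that called a region, whose own lowest folds were 3.98 to 4.34, so that nearly every region had to pass 4.25. It exceeded 4.25 in 521 of the 522 regions, 1.5 times that in 350 (67.0%) and 2 times that in 173 (33.1%). For the 44, 41 passed 1.5 times (93.2%) and 33 passed 2 times (75%). A region without a GFP peak was not detectable at that list's depth, which does not show it closed.

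Regions close to the limits of the rule had similar ranks. The 307 regions with exactly 4 Nur77 calls had a median percentile of 19.97, and the 906 that missed by having 3 calls had 16.8. The 316 with 1 GFP call had 22.4, and the 631 that missed by having 2 had 24.0. The highest of those with 3 Nur77 calls lay at Klhl5 (63.2), Enpep (59.2) and Nudt9 (59.0). The highest of those with 2 GFP calls were at Pfn4 (83.8), Fnbp1 (77.7), Alpl (67.1), Lhx2 (66.6) and Cxcl14 (66.4), each called in all 6 Nur77 lists.

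The most prominent of the 44 fully separated regions was inside Arhgef33, which encodes a guanine nucleotide exchange factor, at chr17:80372969-80374404 in mm10. It stood at percentiles 80.4, 76.9 and 74.2 in Nur77 LPS replicates 1, 2 and 3 and at 81.5, 73.2 and 82.2 in untreated Nur77 replicates 1, 2 and 3, with no GFP peak (mean 78.1 ± 3.86, SD, n = 6). All 6 libraries were close together, and the LPS and untreated values overlapped. The summits lay within 81 bp of each other, and the folds were 40.3, 36.6 and 28.5 with LPS and 40.4, 25.7 and 45.2 untreated.

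The next lay at the end of Zic5, a zinc finger factor gene of neural development, at chr14:122462730-122465659. Its percentiles were 81.1, 68.1 and 75.3 with LPS and 83.0, 74.1 and 84.9 untreated in the Nur77 line (77.7 ± 6.39, SD, n = 6). This was a broad region of 2930 bp, 9.72 kb from Zic2, and its summits held 82, 42 and 47 reads with LPS and 76, 36 and 117 untreated. Within Ece1, which encodes the endothelin-converting enzyme, a region at chr4:137912712-137914402 reached 77.3, 70.4 and 75.8 with LPS and 83.5, 70.4 and 81.9 untreated (76.6 ± 5.53, SD, n = 6). It covered the internal start printed above and lay 1.64 kb from a region called in all 12 lists. A lower region lay 10.3 kb from Ece1, at a mean percentile of 26.6 in 4 Nur77 lists. It was also called in GFP untreated replicate 3, at 48.6, above each of its Nur77 percentiles (38.8, 1.7, 41.3 and 24.6).

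Rasgrf2, a gene of a calcium-responsive Ras and Rac exchange factor, held several of the regions. The strongest, at chr13:92030367-92031676, was at 64.9, 68.1 and 64.7 with LPS and at 74.8, 73.2 and 80.6 untreated (71.0 ± 6.27, SD, n = 6). The untreated values were all above the LPS values, though list ranks of different lengths do not show a change. Its 6 summits fell within 26 bp. Others inside the gene were at 92067589 to 92068303 (mean 27.5, 5 Nur77 lists) and at 92095028 to 92095492 (35.2, 4 lists), and another lay 4.58 kb outside it (30.1, 4 lists). The 3 inside Rasgrf2 formed 1 of 21 groups of neighbours, 44 regions in all, that lay within 50 kb of another region of the set. The largest groups held 3. The usual spacing was wider, with a median of 752 kb to the next.

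**Figure D2:**
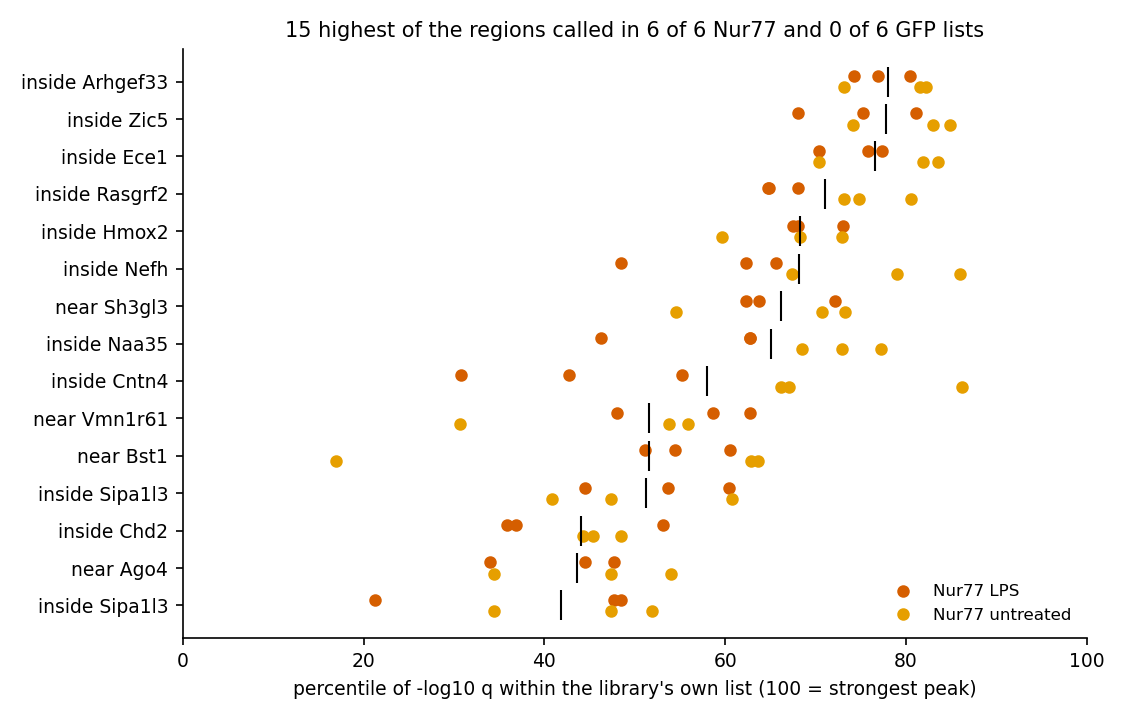
Percentile of -log10 q within each Nur77 list for the 15 highest regions called in all Nur77 and no GFP lists, with LPS and untreated as points and the mean of the 6 libraries as a line. The first 3 lie at means of 76.6 to 78.1, and the points spread more widely from Nefh downwards.

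Hmox2, the gene of the constitutive haem oxygenase, held a region with little spread (chr16:4742985-4743707, 68.2 ± 4.89, SD, n = 6). At Nefh, which encodes the heavy neurofilament subunit, the region at the gene end was more variable, at 65.6, 62.3 and 48.5 with LPS and 86.0, 67.4 and 79.0 untreated (chr11:4946534-4948560, 68.1 ± 13.1, SD, n = 6). Sh3gl3, which encodes an endophilin, lay 8.63 kb from a region at 66.1 ± 7.22 (SD, n = 6). Naa35, a subunit gene of an amino-terminal acetyltransferase, held a region with 62.8, 46.3 and 62.7 with LPS and 72.9, 68.5 and 77.2 untreated (chr13:59624490-59625696, 65.1 ± 10.8, SD, n = 6). Cntn4, an axonal cell adhesion gene, had the widest spread of the leading regions, at 42.7, 55.2 and 30.8 with LPS and 66.2, 86.2 and 67.1 untreated (58.0 ± 19.6, SD, n = 6). At Nefh, Naa35 and Cntn4 all the untreated percentiles were above all the LPS ones, each in its own list.

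Lower fully separated regions lay near Vmn1r61, a vomeronasal receptor gene (51.6 ± 11.4), near Bst1, which encodes the ectoenzyme CD157 (51.5 ± 17.7), and at a pair of places inside Sipa1l3 (51.3 ± 8.38 and 41.9 ± 11.7; SD, n = 6 each). Chd2, a chromatin remodeller gene, held the widest region, of 4263 bp at 44.0 ± 6.68 (SD, n = 6), with summits up to 1384 bp apart, so the lists did not share a single summit there. Others lay 5.93 kb from Ago4, an Argonaute gene (43.6), inside Ssbp3 (41.0), at Ina (40.1), inside Dner (38.5), 11.6 kb from Kif2a, a kinesin gene (38.2), and inside Tbc1d7 (37.1), which encodes a subunit of the complex that restrains mTORC1. Over the 44, the summits of a region spanned a median of 126.5 bp, and 25 of the 44 spanned under 150 bp.

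The region inside Nr4a1, at chr15:101270092-101272260, ranked below these. Its percentiles were 44.4, 44.5 and 23.9 with LPS and 41.3, 22.0 and 35.9 untreated in the Nur77 line, and no GFP list had a peak in it (35.3 ± 10.1, SD, n = 6). The LPS and untreated percentiles overlapped. Its folds were 11.6, 12.6 and 7.45 with LPS and 10.2, 7.13 and 9.32 untreated. The peaks were 1775, 2158 and 592 bp wide with LPS and 291, 375 and 599 bp wide untreated, so the extra width came from LPS replicates 1 and 2, while the summits of all 6 lay within 84 bp. Whether its reads came from the cell's own gene or from the inducible construct cannot be told apart in peak lists. Scn8a, a voltage-gated sodium channel gene on the same side of chromosome 15, held fully separated regions 377 and 253 kb from it (38.8 ± 18.9 and 34.1 ± 11.6, SD, n = 6 each). Within 500 kb of the Nr4a1 region, 4 of 121 merged regions were of the Nur77-gained set (3.31%), beside 0.52% over all regions, and 3 were of the opposite set. The 4 include the Nr4a1 region itself and both Scn8a regions, which are the fully separated ones. The window was centred on a gained region, so its share is description only.

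**Figure D3:**
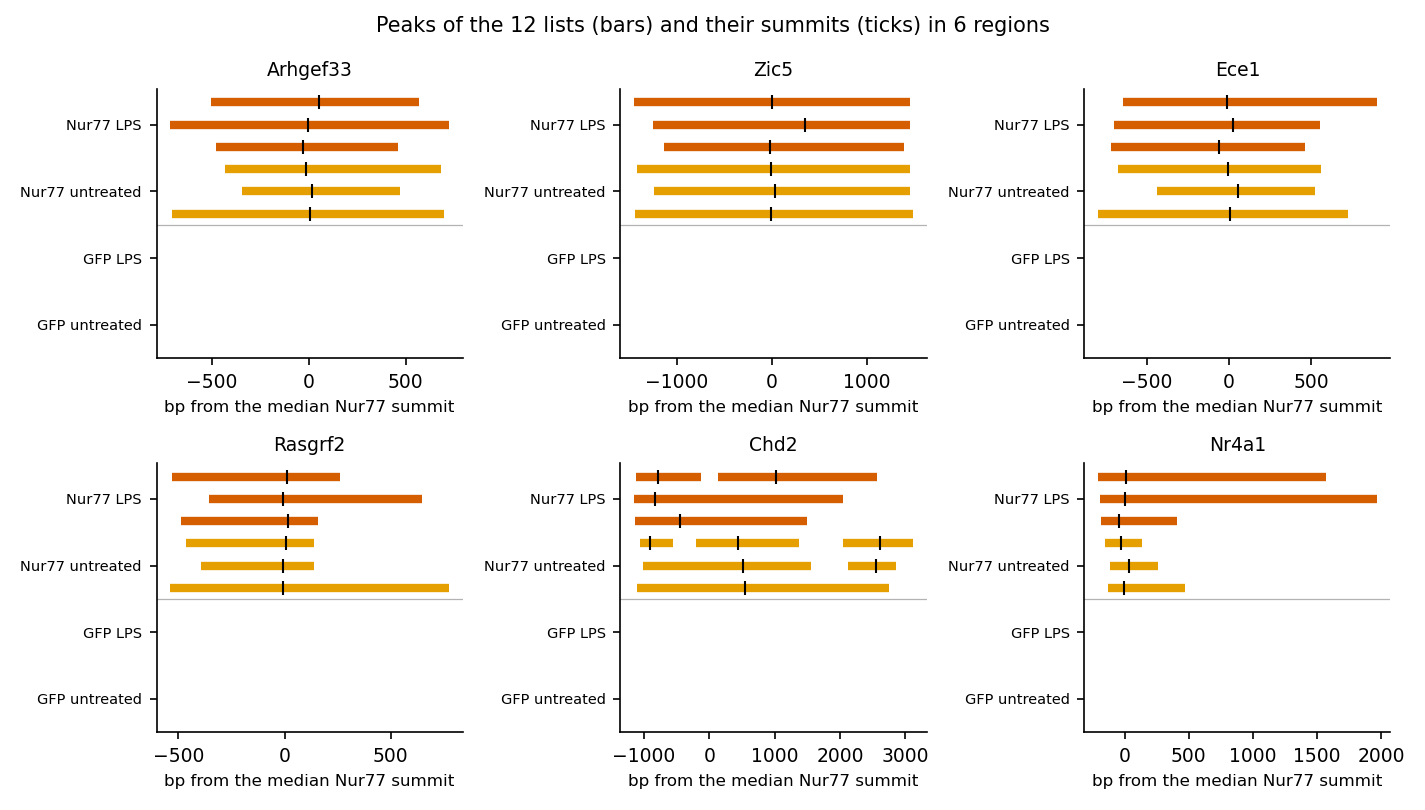
Peaks of the 12 lists as bars, with summits as ticks, in 6 of the regions, in bp from the median Nur77 summit. Summits of Rasgrf2 fall within 26 bp and those of Arhgef33 within 81 bp. The Chd2 region is split into several peaks in 3 lists. At Nr4a1 the peaks of Nur77 LPS replicates 1 and 2 extend to 1775 and 2158 bp. No GFP list has a peak in any of the 6.

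The regions were then set beside 18 lists of genes, which cover pathways tied to Nur77 and macrophage activation, small GTPase regulators, housekeeping genes and markers of other cell types. Of the 522, 30 (5.75%) lay within 50 kb of a listed gene, against 3743 regions of all kinds there, so the share of regions near these genes that were gained was 0.801%, beside 0.52% over all regions. The 30 include 9 near the small GTPase list, which was drawn up with some of the regions already known. The pooled share is therefore not independent of the regions themselves. Regions overlapping a list gene numbered 14 of 1143. In the Nr4a list the only such region was that at Nr4a1, 1 of 92. Among coregulators, 2 of 264 regions were gained, among them 1 that lay 45.9 kb from Ncoa3, a coactivator gene (32.9). Other nuclear receptors had 2 of 318, at 29.4 kb from Pparg (16.2) and 10.97 kb from Ppard (32.7), which encode fatty acid sensing receptors. The values in brackets are mean percentiles.

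Shares near inflammatory genes were close to the 0.52% over all regions. NF-kB feedback and signalling had 2 of 374 (0.535%), 35.1 kb from Nfkbib (12.2) and 25.1 kb from Nfkbid (15.5), both IkB genes. Cytokines, chemokines and inflammatory enzymes had 1 of 287 (0.348%), 33.2 kb from Cxcl1 (8.14), a neutrophil chemoattractant gene. The interferon list had 1 of 249 (0.402%), inside Irf1 (17.0), a transcription factor gene. In the AP-1 family, 0 of 339 regions were gained with Nur77 and 17 were of the opposite set, beside 0.52% and 4.4% over all regions, so that neither count stands apart from what all regions show. The lowest of the 522 by percentile lay 1.40 kb from Ripk2, the kinase gene of NOD receptor signalling, at 2.64 in 4 Nur77 lists.

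The lipid list had 3 of 363. Cd36, a scavenger receptor gene for oxidised lipoproteins, had a fully separated region inside it at 28.8 ± 13.8 (SD, n = 6) and another 5.64 kb away at 17.2 in 5 lists, and the third lay 25.4 kb from Fasn, the fatty acid synthase gene (21.5). Macrophage identity genes had 2 of 304. The region inside Runx1, a haematopoietic transcription factor gene, was at 59.5, 55.2 and 52.1 with LPS and 55.1, 46.2 and 54.0 untreated (53.7 ± 4.41, SD, n = 6), with 1 GFP call. The other lay 33.0 kb from Mpeg1 (16.3). Small GTPase exchange factors and activators had the most, 9 of 505 (1.78%), with 4 at Rasgrf2 and others inside Arhgef33, Akap13 (38.1), Arhgef6 (24.2) and Vav3 (17.1) and 27.6 kb from Arhgef1 (20.5). That list was drawn up with Arhgef33 and Rasgrf2 already known to be among the regions, so its share stands for nothing beyond them.

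Among markers of other cell types, those of endothelium and muscle had the highest shares of gained regions of the 18 lists, on few regions each and beside 0.52% over all regions. These lists too were drawn up with earlier results of these data known, and they hold Ece1 and Zic5, genes of the strongest regions. Their shares are therefore description only. Markers of endothelium had 4 of 112 (3.57%), 2 of them at Ece1. The others lay 46.6 kb from Cdh5 (48.3) and 7.38 kb from Pecam1 (14.5). The lower Ece1 region ranked higher in its single GFP list than in any Nur77 list. Markers of muscle had 2 of 68 (2.94%), at 1.22 kb from Myog (19.7) and 34.5 kb from Myod1 (33.8). Markers of neurons had 1 of 98 (1.02%), the Zic5 region. Housekeeping genes had 0 of 192, and 0 of the regions lay within 50 kb of epithelial, fibroblast, B cell or T cell markers. Within 100 kb, B cell markers had 3 of 152 (1.97%). As a check of the labelled cell type, 14 of 15 macrophage identity genes had a region called in all 12 libraries there, against 0 of 6 epithelial, 1 of 7 fibroblast, 1 of 7 B cell, 2 of 7 T cell, 1 of 7 muscle, 2 of 6 endothelial and 3 of 10 neuronal markers.

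Outside these lists, the highest regions with 1 GFP call or fewer than 6 Nur77 calls lay inside Ptpdc1, a phosphatase gene (60.9), near Vmn1r238 (58.3), inside Phf10, a gene of a SWI/SNF remodelling complex subunit (58.1), 60.6 kb from Pmepa1 (57.1) and at Hao1 (54.2). Ptpdc1 was called in all 3 LPS lists, at 68.6, 57.5 and 58.0, and in untreated replicate 3 at 59.3. Plaur, the urokinase receptor gene, had a region 4.66 kb away with 61.3, 48.0 and 63.7 in the LPS lists and 36.4 in untreated replicate 1. GFP LPS replicate 3 also called it, at 54.7.

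The regions gained with Nur77 sat inside genes more than the comparison sets did. They lay within the span of a protein-coding gene in 343 of 522 cases (65.7%), against 46.2% of the 4415 regions of the opposite set, 54.0% of the 12031 other regions called in 4 to 7 lists and 56.5% of all regions. Only 41 (7.85%) were over 50 kb from any protein-coding gene, against 15.8%, 9.58% and 9.02%. Within 1 kb of a gene end lay 56 (10.7%), against 7.36%, 8.31% and 16.0%. The genes that hosted them had a median span of 72.8 kb, against 83.9, 66.6 and 56.0 kb. Their median width of 682 bp was near that of the other sets (701, 672 and 703 bp). Of the 44 fully separated regions, 32 (72.7%) were inside a gene and 7 (15.9%) within 1 kb of a gene end. No test was made of these shares, because regions of the same lists are not replicates.

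**Figure D4:**
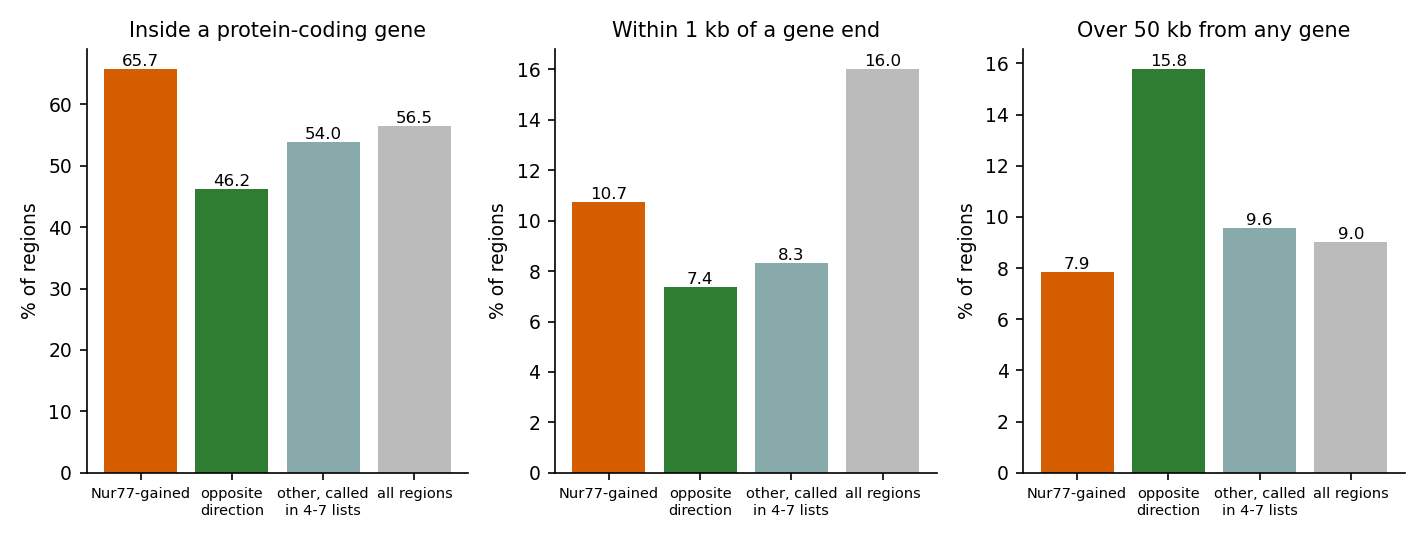
Share of regions inside a protein-coding gene, within 1 kb of the end of one and over 50 kb from any such gene. The sets are the 522 Nur77-gained regions, the 4415 of the opposite set, the 12031 others called in 4 to 7 lists and all 100374. The Nur77-gained bar is the highest for the inside share, at 65.7%, and the lowest for the distant share, at 7.85%.

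The nearest region called in all 12 libraries was a median of 11.2 kb away, against 18.2 kb for the opposite set, 11.1 kb for the other regions called in 4 to 7 lists and 10.7 kb for all regions, so only the opposite set differed much. Of the 206 without any GFP call, 65 were over 10 kb from the nearest GFP peak, and 8 had one within 500 bp. On chromosome 12, 4 of 5044 regions were gained (0.0793%) and 564 were of the opposite set (11.2%). On the other autosomes and X, 0.332% to 0.762% were gained and 3.13% to 5.55% were of the opposite set. Of these, chromosomes 13 (0.762%) and 15 (0.760%) had the highest gained shares. Chromosome Y had 2 gained regions of 20. Without chromosome 12, 518 regions were gained and 3851 were of the opposite set.

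**Figure D5:**
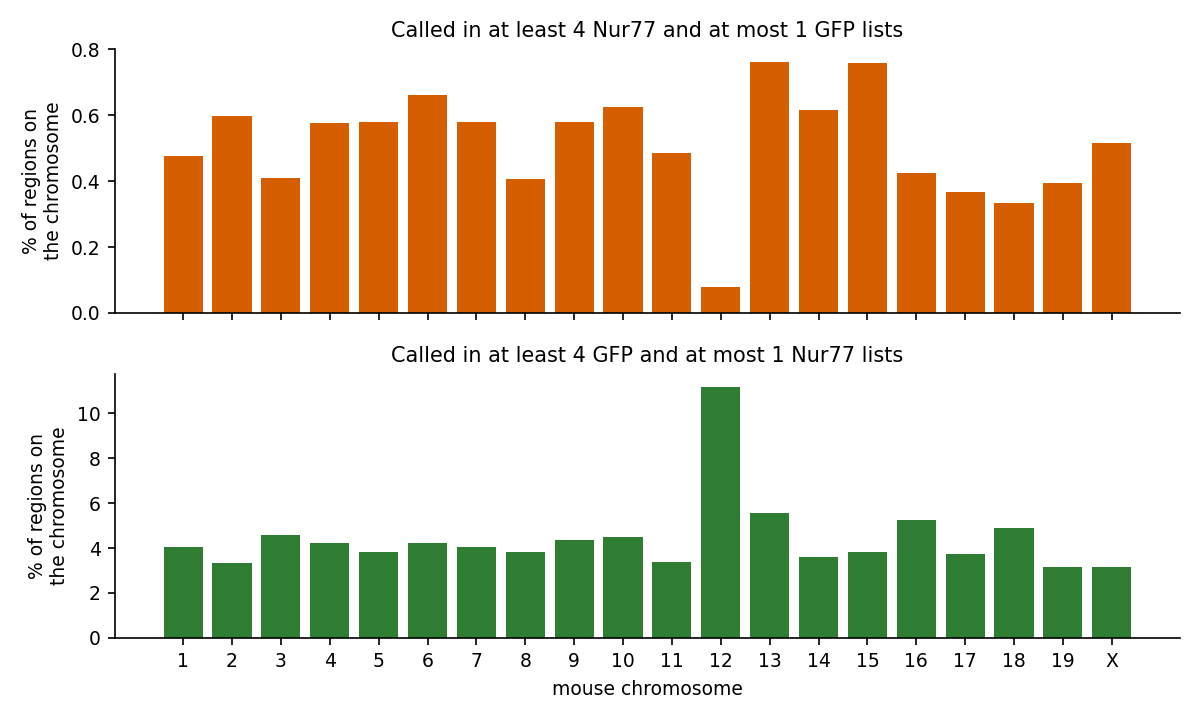
Share of the merged regions on each chromosome that were gained with Nur77 (upper panel) and that were of the opposite set (lower panel), in percent. Chromosome 12 stands lowest in the upper panel, at 0.0793%, and highest in the lower, at 11.2%. Chromosome Y, with 20 regions, is not drawn.

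The rule treated the LPS and untreated Nur77 lists alike. The numbers called under each treatment were compared, within a set that these same calls had chosen. Nur77 libraries called 397 ± 94.3 of the 522 with LPS and 395 ± 140 untreated (SD, n = 3 each). The difference of 2 was far smaller than the spread between libraries (exact permutation test, two-sided, p = 0.9, where the smallest p possible is 0.1). Per 10000 peaks the means were 74.96 ± 7.47 with LPS and 78.7 ± 12.2 untreated, a difference of -3.73 (exact permutation test, p = 0.6). The rule used these same calls, and its limit of 4 Nur77 lists requires at least 1 call under each treatment, so a region called only with LPS or only without it could not be among the 522. The test therefore cannot decide whether LPS changed which regions were gained with Nur77. A p of this size with 3 libraries against 3 does not show that the 2 treatments were alike.

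Single regions split both ways. Of the 522, 75 were called in all 3 LPS and all 3 untreated Nur77 lists, 95 in 3 LPS and 2 untreated, 45 in 2 LPS and 3 untreated, and 177 in 2 and 2. Among the 307 with 4 Nur77 calls, 54 (17.6%) had 3 LPS calls and 1 untreated, and 76 (24.8%) had 1 LPS call and 3 untreated. Over all 5641 regions with 4 Nur77 calls those shares were 23.6% and 13.1%. With 3 LPS calls, the highest were Ptpdc1, Tmem67 (53.6), Foxp1, a forkhead factor gene (52.8), Plaur (52.3), Calcrl (51.3) and Slc38a10 (50.3). GFP LPS replicate 3 also called Tmem67, Foxp1, Plaur and Calcrl, at percentiles of 55.9, 49, 54.7 and 67.2. At Calcrl this was above every Nur77 value, 54.4, 59.6 and 60.5 with LPS and 30.8 in untreated replicate 1. At Tmem67, Foxp1 and Plaur some Nur77 values were higher and some lower. With 3 untreated calls and 1 LPS call, a region by 2610001J05Rik stood at 44.2. The shortest Nur77 list, untreated replicate 2, was the one most often without a call, and its part in these splits was not tested.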

How the data were processed

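ATAC-seq peak lists of 12 RAW264.7 libraries were used, in 4 groups of 3 from the titles and characteristics, each library as 1 narrowPeak list called separately. Per the labels, nuclei were tagmented at 37 °C for 45 min, with selection of fragments below 700 bp. The submitters' processing notes name the mm10 build, DiffBind 3.0.15 and cutadapt 2.6. Which aligner and peak caller were used is not given in the sources used here. Names of the deposited peaks carry a mapping quality of 20 and a q value of 0.001.

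The deposited score is the authors' whole number per peak. The deposited fold is the authors' ratio of summit height over background, and -log10 p and -log10 q are given by the authors for each summit. All were used only to describe or rank peaks within a list.

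Rows of equal start and end were collapsed, and overlapping or touching peaks were merged across lists. Any overlap of at least 1 bp between a library's peak and a region counted as a call. The lists give no read totals. The background height per library, 0.402 to 1.254 for Nur77 and 0.411 to 1.45 for GFP, was derived as the value that turns folds into whole reads (100% of folds within 0.1 reads), and a listed peak needed at least 5 to 8 reads. Starts are 1-based. Genes were 21887 protein-coding spans of a RefSeq table of GRCm38.p6. It gives no strand, so either gene end stands for a promoter, except in the promoter windows, which are stranded. Of 230 list genes, 229 matched.

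The rule used the Nur77 and GFP calls, so that contrast was described without a test. LPS against untreated within the Nur77 line was compared by an exact permutation test, on regions that these same Nur77 calls had chosen. Replicate numbers were not shown to pair the samples, so the main test used no pairing. Merging, calling, the rule and the background height were checked on simulated data, and the permutation test was not. The software was matplotlib 3.10.9, scipy 1.17.1, pandas 2.3.3 and numpy 2.4.6 under Python 3.11.15.

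Named were the region at Nr4a1, the 25 highest fully separated regions, the 5 highest others, up to 30 within 50 kb of list genes, the 5 widest, up to 10 groups of neighbours, the 10 highest that split 3 against 1 by LPS, up to 10 at gene ends, those with a promoter window, the 5 highest and 5 lowest, and the 5 highest just outside each limit. Not every region picked is described. The regions, lists and rules were chosen with earlier results of these data known.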

Additional observations from a re-analysis of the deposited data

Results flagged for a closer look

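Among the 6 GFP libraries, LPS replicate 3 stood far from the others in the number of the 522 regions it called, 176 against 8 to 49, with a gap of 0.756 of the whole range. Its list was also the longest and had the highest background height, 1.45 reads. The part of depth in its calls was not tested.

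The region 10.4 kb from Bst1 had a percentile of 16.9 in Nur77 untreated replicate 2, against 51.1 to 63.6 in the other Nur77 libraries. That list was the shortest of all, with 36184 peaks. In all, 29 sets of 6 values were examined for a value far from the rest and 2 had one, while chance gives about 1 in 20.

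On sequences other than chromosomes 1 to 19, X and Y, which the merging left out, 2 of 75 regions were called in at least 4 Nur77 and at most 1 GFP lists, and 2 met the opposite pattern.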

How the results depend on the processing

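The count of 522 gained regions rested on list length and single libraries. With every list cut to the 36184 strongest peaks, as many as in the shortest one, there were 1136, of which 93 were among the 522, and 112 fully separated regions in place of 44. Of the 44, 31 still met the rule in trimmed lists and 15 were still fully separated. Those at Arhgef33, Zic5, Ece1 and Rasgrf2 were among the 15. The Nr4a1 region and both at Scn8a met the rule in trimmed lists but were no longer fully separated. With the strongest 20000 peaks they did not meet the rule. The strongest 20000 peaks of each list gave 590, with 8 of the 522, and a -log10 q of at least 5 gave 502, with 347. With 1 library left out the count ran from 248 to 1009: 248 without Nur77 LPS replicate 1, 317 without LPS replicate 3, 262 and 260 without untreated replicates 1 and 3, 1009 without GFP LPS replicate 3 and 798 without GFP untreated replicate 3. Fully separated regions then ran from 45 to 77, the highest without Nur77 untreated replicate 2, the shortest list. Leaving out any list loosens that pattern, so a rise from 44 was largely fixed. Counting GFP peaks within 500 bp (500 regions) and leaving out chromosome 12 (518), both chosen after seeing the data, changed little.

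Every setting chose its regions by Nur77 calls, so none of the tests below can decide whether LPS changed which regions were gained. Cut lists and left-out libraries also chose the regions again, so their values are not the same difference re-measured. The difference between LPS and untreated was 2 over the 522. It was -60.7 over the 1136 regions of trimmed lists, 93 of them shared (exact permutation test, p = 0.4). It was -28.7 over the 590 regions of the strongest 20000 peaks, 8 of them shared (p = 0.5, exact). Over the 522 it was -3.73 per 10000 peaks, a measure chosen after seeing the data. With 1 library left out it ran from -37.3 (without Nur77 untreated replicate 2) to 43.5. The replicate block left it at 2 (exact permutation test within pairs, p = 1). The numbers were not shown to pair samples, since deviations of same-numbered Nur77 libraries correlated at 0.0338, 0.114 and -0.00653 over regions, and untreated replicate 3 correlated best with LPS replicate 1 (0.0702).

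The gene-end share of 10.7% was 14.6% within 2 kb, 26.8% within 5 kb and 17.2% with genes of any type, with which the inside share was 73.6%. List genes overlapped 14 regions. Motif searches of whole regions and of narrower windows around summits were not run, as no genome was at hand. The causes of these changes were not tested. Depth limits every absence, since a region needed 5 to 8 reads to be listed.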
